A study of Rattus norvegicus with 6 samples.

Results

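This account covers the genes of secreted growth factors and cytokines, of their receptors and of close relatives by name that were predicted as targets of the microRNAs (miRNAs) listed as differential after cardiac stem cells (CSCs) were treated with exosomes. Genes were taken by symbol, from 16 name stems: Fgf, Wnt, Fzd, Tgfb, Bmp, Vegf, Pdgf, Igf, Notch, Dkk, Cxcl or Cxcr, Ccl or Ccr, Il, Tnf, Epha or Ephb, and Efn. Of 4260 genes in the authors' deposited target table, 69 (1.62%) matched, and they held 113 pairs of a miRNA and a gene. The set contains 26 ligands, 24 receptors, 4 co-receptors, 8 secreted antagonists, binding proteins or decoys, and 7 other genes matched by name stem. Those 7 are Fgfr1op2, Igf2bp2, Tgfb1i1, Tgfbrap1, Tnfaip1, Tnfaip8 and Tnfaip8l2, whose products act inside cells.

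The treated CSCs, taken from heart tissue of 4-week-old Sprague Dawley rats, received exosomes of bone marrow mesenchymal stem cells (MSCs) in their medium for 3 days, and the untreated CSCs came from the same strain, age and tissue and received none. Exosomes are small membrane vesicles released by cells. They were precipitated with a commercial reagent from MSC cultures at passage 4. Total RNA of 3 exosome arrays and 3 untreated arrays was measured on Affymetrix miRNA arrays. No array of CSCs given vesicle-free precipitate is among the groups. Whether a group's arrays stand for separate cultures is not stated, so each p-value below reflects array-to-array spread that may be technical. The files name only the 22 listed miRNAs, and none of these is a marker of muscle, blood, epithelium, endothelium or mesenchymal cells in the lists used here, so the labelled cell type was not checked against markers.

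Growth factors and cytokines are secreted proteins that bind receptors on the same or neighbouring cells, and those receptors pass the signal on through kinases, SMAD proteins, beta-catenin or cleaved receptor fragments. In the heart, FGF, VEGF, PDGF and IGF ligands are known for roles in growth and vessel formation, TGF-beta in scarring, and the chemokine Cxcl12 in guiding stem and progenitor cells. A miRNA is a short RNA that pairs with messenger RNAs, mostly through its bases 2 to 8 (the seed), and lowers their stability or translation. A predicted pair is a statement about sequence. No messenger RNA or protein was measured here, so no level of any of the 69 genes is known from these files.

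Of the 22 listed miRNAs, 19 had at least 1 of the 69 genes among their predicted targets, 5 listed as lower and 14 as higher with exosomes. The 3 without one were let-7i-3p, miR-201-5p and miR-181c-5p. The mature sequences of the miRNAs with most pairs are given because each predicted site below is read against them. They are from the deposited table and run 5′ to 3′, with the seed in capitals. For 20 of the 22 listed miRNAs, all but miR-328a-5p and miR-362-5p, the RefSeq table of build GRCr8 held a sequence, and all 20 were identical. First come the 5 lower miRNAs.
miR-207: cUUCUCCUggcucuccucccuuu
miR-760-3p: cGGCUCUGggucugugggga
miR-328a-5p: gGGGGGCAggaggggcuca
miR-326-5p: gGGGGCAGggccuuugugaa
miR-702-5p: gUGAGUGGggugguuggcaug
The higher miRNAs with at least 3 pairs follow.
miR-330-3p: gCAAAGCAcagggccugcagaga
miR-503-5p: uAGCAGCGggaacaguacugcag
miR-18a-5p: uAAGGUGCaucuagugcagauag
miR-181b-5p: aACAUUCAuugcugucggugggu
miR-362-5p: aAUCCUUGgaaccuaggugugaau
miR-500-5p: aAUCCUUGcuaucugggugcuuag
miR-362-3p: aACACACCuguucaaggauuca
miR-501-3p: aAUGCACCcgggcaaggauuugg
miR-147: gUGUGCGGaaaugcuucugcua

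The miR-362-5p and miR-500-5p sequences share the seed AUCCUUG. The seeds of miR-326-5p and miR-328a-5p, GGGGCAG and GGGGGCA, are the same run of bases shifted by 1, so that 1 stretch of bases can pair with both. In the RefSeq annotation of GRCr8, miR-207 lies on chromosome 5 (60638847 to 60638869, plus strand), miR-760-3p on chromosome 2 (213077281 to 213077300, minus strand), miR-326-5p on chromosome 1 (163266184 to 163266203, plus strand) and miR-702-5p on chromosome 12 (25318581 to 25318601, minus strand). Among the higher miRNAs, miR-330-3p lies on chromosome 1 (87961266 to 87961288, plus strand) and miR-503-5p on chromosome X (137725899 to 137725921, minus strand).

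The direction given to each gene below rests on the array signals of its miRNAs, so these come first. The 22 miRNAs were listed by their authors because they differed on these same arrays, and what follows about their signals is a description. The miRNA with most of the 69 genes, miR-207 with 18, was dim, with log2 signals of 0.54, 0.40 and 1.46 on exosome arrays against 2.76, 1.89 and 1.65 on untreated arrays. Detection calls were present for 0 of 3 exosome arrays but 3 of 3 untreated arrays, so its level with exosomes is only an upper bound. Every exosome array lay below every untreated one.

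miR-760-3p, with 15 of the genes, had 4.38, 4.40 and 4.07 log2 on exosome arrays and 4.69, 4.91 and 5.52 on untreated arrays. miR-328a-5p, with 13, had 6.85, 6.76 and 8.23 with exosomes and 9.16, 8.35 and 8.62 without. miR-326-5p, with 11, had 1.64, 2.41 and 4.72 with exosomes and 6.04, 5.47 and 5.35 without. In all of these the groups do not overlap, and exosome replicate 3 lay closest to the untreated arrays for miR-328a-5p and miR-326-5p, as it did for miR-207. miR-702-5p, with 9 of the genes, had 2.94, 2.75 and 3.21 log2 with exosomes and 3.65, 3.82 and 3.19 without, and its groups overlap.

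Of the higher miRNAs, miR-330-3p and miR-503-5p had 7 of the genes each. miR-503-5p, of the extended miR-15/16 family known to restrain the cell cycle, had 8.33, 8.44 and 8.32 log2 on exosome arrays and 7.29, 6.54 and 5.69 on untreated arrays. miR-330-3p had 5.58, 5.82 and 5.88 with exosomes and 4.75, 4.97 and 5.29 without. The exosome arrays of both lay above every untreated array, and those of miR-503-5p were close together while its untreated arrays spread widely. miR-18a-5p, made from the growth-promoting miR-17-92 cluster, and miR-181b-5p, the brightest of the set, had 5 of the genes each. Their means were 7.65 ± 0.12 and 11.56 ± 0.24 log2 with exosomes (SD, n = 3) and 6.79 ± 0.37 and 10.71 ± 0.10 without (SD, n = 3).

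With limma, 0 of 728 mature miRNAs (0%) had an adjusted p under 0.05. At an unadjusted p under 0.05 there were 88 higher (12.1%) and 18 lower (2.47%), and all 19 miRNAs with a target among the 69 genes were among them, which follows from how they were listed. That split moved with the scaling. Quantile normalization gave 34 higher and 30 lower, and centring each array on its bright miRNAs (mean log2 of at least 5) gave 17 higher and 146 lower. The median difference over all 728 was 0.08 log2 as deposited, 0.01 after quantile normalization and -0.29 after that centring. The adjusted p of the 19 miRNAs ran from 0.228 to 0.31 in limma. Separated groups were seen for 116 higher (15.9%) and 27 lower mature miRNAs (3.71%), which include 14 of the 14 higher and 4 of the 5 lower miRNAs described here. Fitted differences, exosome minus untreated, were -2.70 ± 0.77 log2 for miR-326-5p, -1.43 ± 0.44 for miR-328a-5p, -0.76 ± 0.24 for miR-760-3p and -0.59 ± 0.21 for miR-702-5p (SE, limma). No size is given for miR-207, since it was not detected on the exosome arrays. Among the higher ones they ran from 0.70 ± 0.21 for miR-106b-3p to 1.85 ± 0.39 for miR-503-5p and 2.16 ± 0.51 for miR-147 (SE, limma). Sizes also moved with the processing. The median of the 14 higher ones was 0.85 log2 as deposited and 0.415 after quantile normalization (0.12 for miR-106b-3p). With signals floored at a log2 of 4 the difference was 0.82 for miR-147 and -1.38 for miR-326-5p. It was only 0.201 for miR-500-5p and 0.175 for miR-362-3p, whose untreated signals all lay below that floor. Of the 17 miRNAs tested with the floor, 15 kept an unadjusted p under 0.05 in limma. The exceptions were miR-500-5p and miR-362-3p, with unadjusted p of 0.258 and 0.31 in limma. None of the 19 directions passed the correction, so "higher" and "lower" below name the side on which a miRNA was listed. After quantile normalization 13 of the 19 kept an unadjusted p under 0.05, the other 6 being miR-106b-3p, miR-330-3p, miR-362-5p, miR-532-5p, miR-501-3p and miR-18a-5p. Without exosome replicate 3, limma gave 5 of these 19 an adjusted p under 0.05.

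**Figure D1:**
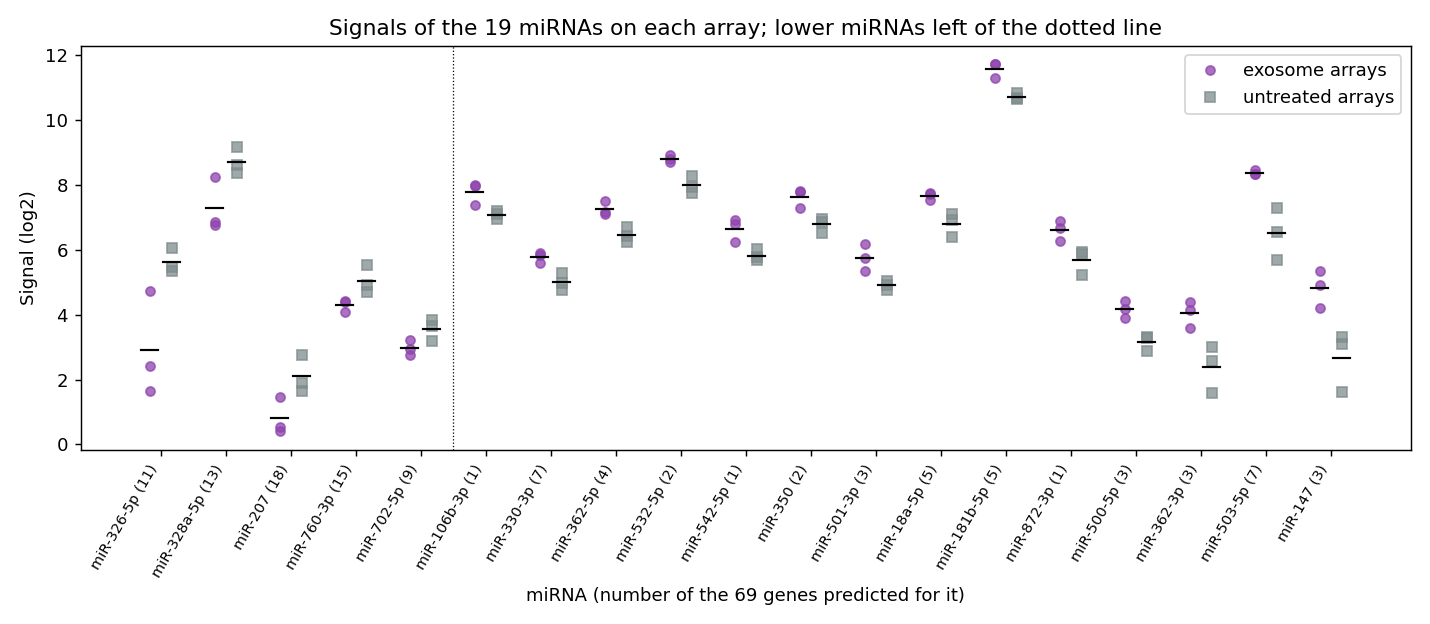
Log2 signal (vertical axis) of each of the 19 miRNAs on the 3 exosome arrays (circles) and the 3 untreated arrays (squares), with group means as black bars and the number of the 69 genes predicted for each miRNA in parentheses. The 5 lower miRNAs stand left of the dotted line, and the circles and squares of miR-702-5p overlap.

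Of the 113 pairs, 66 (58.4%, 95% Wilson interval 49.2% to 67.1% for counting error alone) were held by the 5 lower miRNAs and 47 by the 14 higher ones. Over the whole table the lower miRNAs held 3354 of 6133 pairs (54.7%). By gene, 33 of the 69 (47.8%) were predicted for lower miRNAs alone, against 46% of all genes in the table, and 20 (29.0%) for higher miRNAs alone, against 36.9%. A further 16 (23.2%) were predicted for miRNAs of both directions, against 17.1% of all genes. The share with lower miRNAs alone is near the background. For 24 of the genes (34.8%) at least 2 miRNAs were predicted, against 30.7% of all genes, and for 16 (23.2%) at least 3, against 9.23%. Of the 16, 13 had 3 miRNAs, Tgfbr1 and Il9r had 4, and Cxcl12 had 5. These shares are not tested, since the genes share their miRNAs and are not independent.

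The direction of the pairs is given by family beside the 54.7% of pairs that lower miRNAs held over the whole table. Ephrins and their receptors had 7 of 8 pairs with lower miRNAs, PDGF and VEGF genes 5 of 6 and interleukin genes 13 of 20, whereas TNF genes had 6 of 15 and FGF genes 2 of 5. The TNF and FGF counts include Tnfaip1, Tnfaip8, Tnfaip8l2 and Fgfr1op2, which are neither ligands nor receptors. By role, ligands had 30 of 45 pairs (66.7%) with lower miRNAs, receptors 21 of 40 (52.5%), co-receptors 6 of 7 and secreted modulators 5 of 10. The share of receptors is near that of the whole table. All of these are small counts, in which a single gene with several miRNAs weighs heavily, and the differences were not tested.

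**Figure D2:**
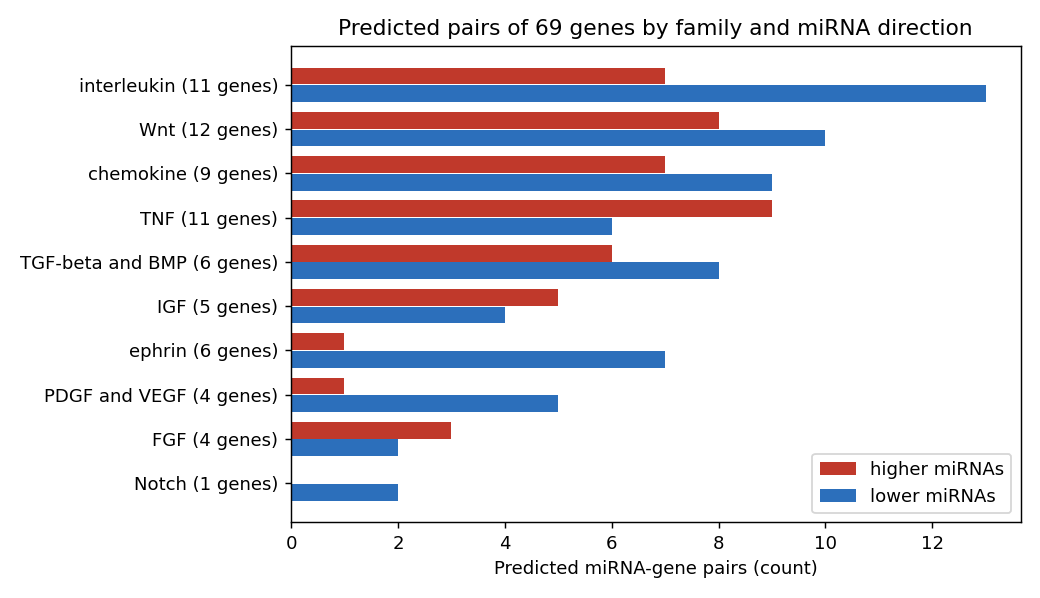
Number of predicted pairs (horizontal axis) for each of 10 families, with higher miRNAs in red and lower miRNAs in blue and the number of genes in parentheses. Interleukin genes have 7 pairs with higher and 13 with lower miRNAs, and ephrin genes 1 and 7.

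Each predicted site carries a miRanda alignment score, which rises with complementarity, and a free energy, taken here to be in miRanda's usual kcal/mol since the files name no unit, which is lower for a more stable duplex. The sites of the genes described here had scores of 151 to 179 with a median of 156, and energies of -38.44 to -20.05. The median score over all 6476 sites of the table was 156 too. The energies of the lower miRNAs' sites were lower, with a median of -26.395 for 70 sites of these genes against -22.38 for the 49 sites of higher miRNAs. The same held over the whole table, at -26.54 and -23.02, and the lower miRNAs are the more GC-rich, at 56.5% to 78.9% G or C against 40.9% to 63.6%. What part base composition has in these energies was not tested.

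**Figure D3:**
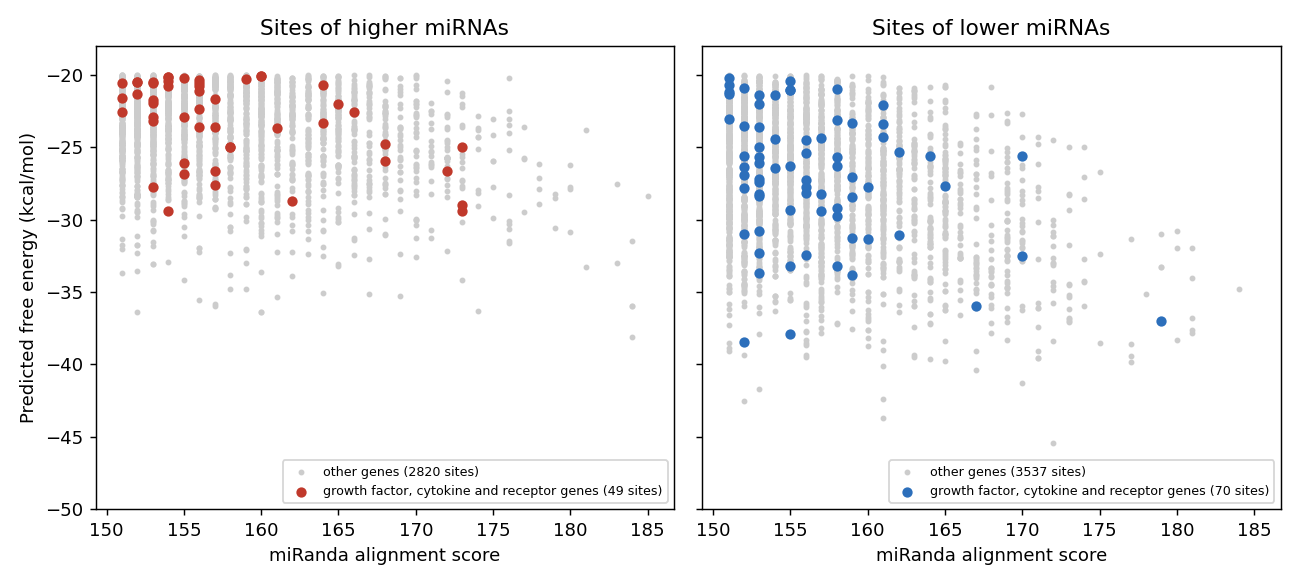
Predicted free energy (vertical axis, kcal/mol) against miRanda alignment score (horizontal axis) of each site, with higher miRNAs left and lower miRNAs right, and sites of the 69 genes in colour over those of other genes in grey. The lowest coloured points on the right are Il33 with miR-207 at -38.44, Cxcl12 with miR-328a-5p at -37.91 and Notch1 with miR-702-5p at -37.01.

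In the TGF-beta and BMP family, whose ligands signal through paired kinase receptors to SMAD proteins, 14 pairs fell on 6 genes. Of the ligands, Bmp8a was predicted for the lower miR-207 and miR-760-3p, and Tgfb3 for the higher miR-501-3p (score 162, energy -28.72). Tgfbr1, the type I receptor kinase, was predicted for the lower miR-207 and miR-328a-5p and for the higher miR-330-3p and miR-872-3p. Its 4 sites are spread over bases 1352 to 2846 of the searched gene sequence, and are printed because this receptor stands on both sides of the comparison. Capitals mark the bases that face the seed.
Tgfbr1 with miR-207: gcaggcttgatactAGGAGAAg
Tgfbr1 with miR-872-3p: aagggtttgctgttATGGTTCt
Tgfbr1 with miR-328a-5p: tctgcctttctgcTGCCCCCt
Tgfbr1 with miR-330-3p: ctcctgctggtagcccTGCTTTGa
All but the miR-872-3p site pair with the seed by Watson-Crick pairs throughout, and that site holds a G:U pair. Tgfbr3, the co-receptor betaglycan, which presents TGF-beta to the signalling receptors, was predicted for 3 lower miRNAs (miR-328a-5p, miR-326-5p and miR-207), each at a score of 152. Tgfbrap1, an intracellular protein that binds TGF-beta receptors, was predicted for the higher miR-18a-5p, miR-500-5p and miR-503-5p, with a score of 173 for miR-500-5p. Tgfb1i1, a focal adhesion adaptor, had the lower miR-760-3p alone. Tgfb1, Tgfb2 and Tgfbr2 had no pair in the table used here.

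Wnt proteins bind Frizzled receptors and stabilise beta-catenin, and Dickkopf (Dkk) proteins are secreted modulators of this signal. The 12 genes held 18 pairs, 8 with higher and 10 with lower miRNAs. Among the 6 Wnt ligands, Wnt9a was predicted for the higher miR-181b-5p and miR-18a-5p and the lower miR-760-3p. Wnt9b was predicted for the lower miR-207 and miR-326-5p and the higher miR-503-5p, and Wnt7a for the lower miR-207 and miR-326-5p and the higher miR-362-3p. Wnt1 and Wnt8b had 1 lower miRNA each, miR-760-3p and miR-328a-5p, and Wnt3 the higher miR-362-5p (score 164). Of the receptors, Fzd1 had the higher miR-350, Fzd2 the higher miR-503-5p and Fzd6 the lower miR-760-3p. The Fzd2 site spans bases 1 to 16 of the searched sequence. The antagonist Dkk1 was predicted for the lower miR-207 (energy -29.78), Dkk2 for the lower miR-702-5p and Dkk3 for the higher miR-532-5p. Of the protein-coding RefSeq symbols, 6 of 19 for Wnt, 3 of 10 for Fzd and 3 of 5 for Dkk appear among the predicted targets.

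FGFs act through receptor tyrosine kinases. The ligand Fgf1 was predicted for the lower miR-760-3p (score 165), and Fgfr3 for the higher miR-501-3p at an energy of -29.42, with a mismatch in the seed. Fgfr2 was predicted for a miRNA of each direction, the higher miR-330-3p (score 173, energy -25.01) and the lower miR-702-5p (score 153, energy -26.09). These sites lie at bases 1304 to 1326 and 1322 to 1345 and overlap by 5 bases, and are shown for that reason.
Fgfr2 with miR-330-3p: cgtgttcaagtcttgTGCTTTGc
Fgfr2 with miR-702-5p: tttgctttggacacgcCCACTCAc
The last 5 bases of the first are the first 5 of the second. Fgfr1op2, which takes its name from a fusion with FGFR1 in human leukaemia, had the higher miR-330-3p at the same score as Fgfr2, 173.

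PDGF and VEGF ligands drive growth of mural and endothelial cells. Vegfa, the main driver of vessel growth, was predicted for the lower miR-326-5p alone (score 158, energy -26.32), and Vegfb for the lower miR-207 (score 162, energy -31.04). Pdgfb had the lower miR-760-3p. Its receptor Pdgfrb, a marker of pericytes and fibroblasts, had the lower miR-207 and miR-326-5p and the higher miR-147. By listed position the last 2 sites touch, the miR-326-5p site ending at base 1368 and the miR-147 site starting at base 1369.
Vegfa with miR-326-5p: tgcaagagcaccCTGCCCCt
Pdgfrb with miR-326-5p: atctcaactgccagCTGCCCCa
Pdgfrb with miR-147: gtcctcaggcagcaCCGCACAg
All 3 have Watson-Crick pairs along the whole seed. Vegfc, Vegfd, Pdgfa and Pdgfra had no pair in the table used here.

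In the IGF family, Igf2, a fetal growth factor, was predicted for the lower miR-207, with sites at bases 1300 to 1322 and 2066 to 2088, and for the higher miR-181b-5p and miR-362-3p. The second miR-207 site had a score of 170 and a fully paired seed, and the first a score of 157 with a G:U pair in it. Igf2r, the receptor that clears Igf2 from the cell surface, had the higher miR-542-5p alone. The binding proteins Igfbp1 and Igfbp4, which hold IGFs in the extracellular fluid, had 1 miRNA each. For Igfbp1 it was the higher miR-330-3p, and for Igfbp4 the lower miR-328a-5p, with an energy of -35.97. Igf2bp2, an RNA-binding protein, was predicted for the higher miR-147 and the lower miR-328a-5p and miR-702-5p. Igf1 and Igf1r had no pair in the table used here.

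Notch1, a receptor whose intracellular part moves to the nucleus after cleavage, was predicted for the lower miR-207 and miR-702-5p. Its miR-702-5p site at bases 502 to 522 had the highest score of all sites of the 69 genes, 179, and an energy of -37.01. Apart from it, the highest scores were 173 for Fgfr1op2, Fgfr2 and Tgfbrap1 and 172 for Il1f5 with miR-181b-5p.
Notch1 with miR-702-5p: gatgcctgctaccCCACTCAc
Notch1 with miR-207: aaagaaaggcatgctAGGAGAAa
Notch2, Notch3 and Notch4 had no pair in the table used here.

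Of the 9 chemokine genes, which encode attractants of migrating cells and their receptors, Cxcl12 had most miRNAs of all 69 genes. It was predicted for the lower miR-207 and miR-328a-5p and for the higher miR-330-3p, miR-503-5p and miR-532-5p. The miR-328a-5p site had an energy of -37.91, and those of miR-207, miR-330-3p and miR-532-5p -21.04 to -20.17.
Cxcl12 with miR-207: aatgtgaaaatggtccAGGAGAAg
Cxcl12 with miR-328a-5p: tgtgcccctcccTGCCCTCc
Cxcl12 with miR-330-3p: catttccaagggactTGCTTTGc
Cxcl12 with miR-503-5p: tttgtgtatcaattcCGCTGCTg
Cxcl12 with miR-532-5p: agtgtcctaaggttAAGGCAGt
The seeds of miR-207, miR-330-3p and miR-503-5p are fully paired, that of miR-328a-5p holds a G:U pair and that of miR-532-5p a mismatch. The sites of miR-207, miR-330-3p and miR-503-5p were each listed 2 times with the same letters, 2495 bases apart. Cxcr7 (Ackr3 in RefSeq), a scavenging receptor of Cxcl12, had the higher miR-18a-5p. Cxcl14 was predicted for the lower miR-328a-5p and the higher miR-330-3p (score 168), and Ccl24, an eosinophil attractant, for the lower miR-207 and miR-760-3p and the higher miR-501-3p. Ccl5 and Ccl25 had the lower miR-702-5p, and Ccl1 and Ccl11 the lower miR-760-3p. Cxcr4, the signalling receptor of Cxcl12, had no pair in the table used here.

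**Figure D4:**
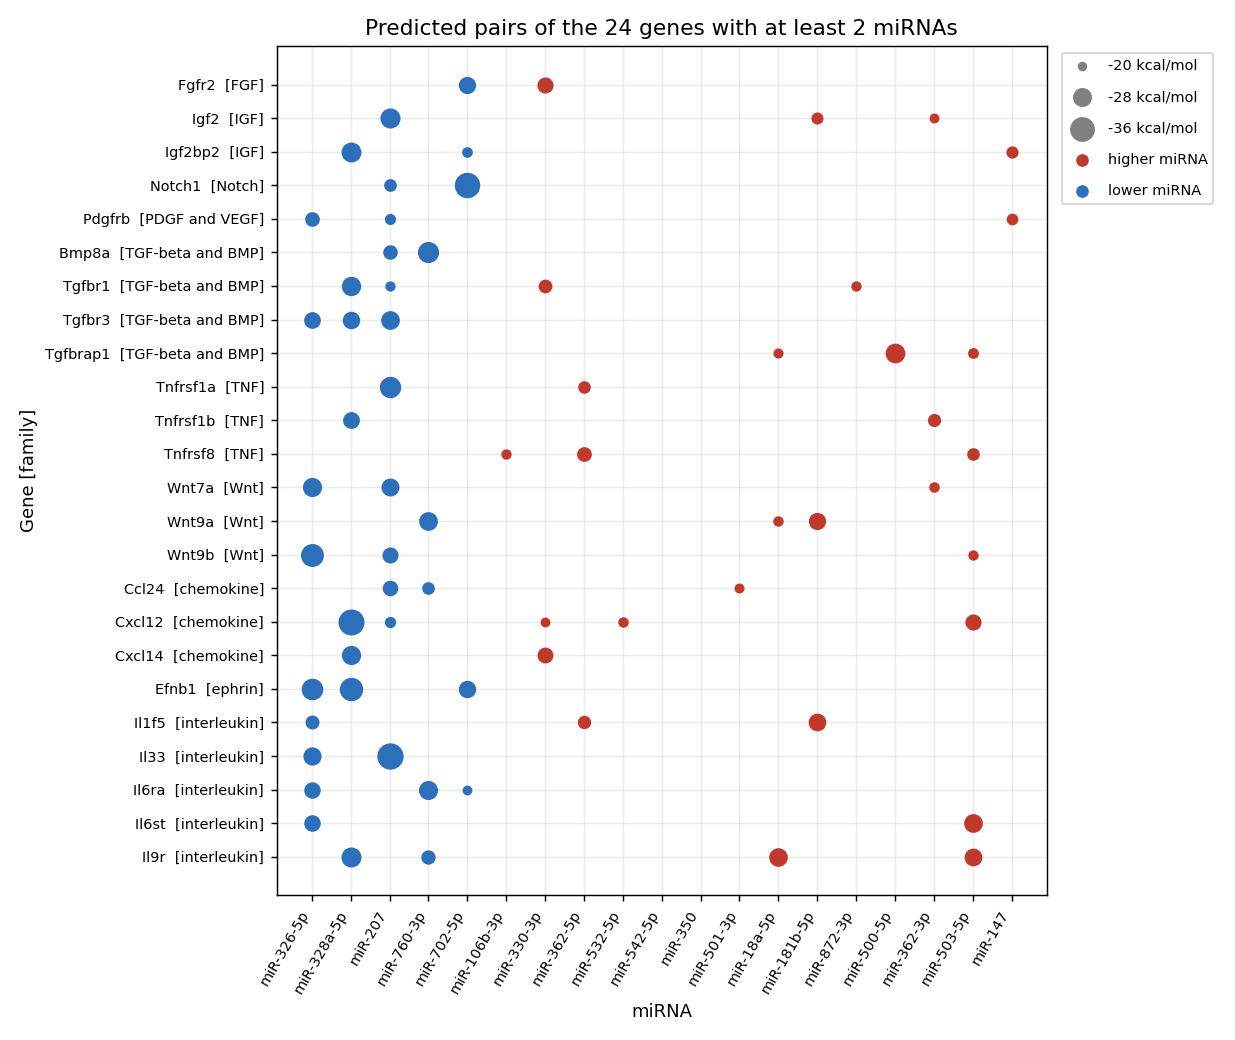
Predicted pairs of the 24 genes with at least 2 miRNAs (rows, with family) and the 19 miRNAs (columns), red for higher and blue for lower, with a larger dot for a lower energy of the best site in kcal/mol. Cxcl12 has 5 dots, 3 red and 2 blue, and Tgfbr3, Efnb1 and Il6ra have 3 blue ones each.

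Interleukins are cytokines of immune cells that act through shared receptor chains. Of 11 genes, 6 had lower miRNAs alone, 2 had higher ones alone and 3 had both. Il33, an alarm cytokine released by damaged cells, had the lowest energy of the 119 sites of these genes, -38.44 with miR-207, at a score of 152 and with G:U pairing in the seed. It was also predicted for the lower miR-326-5p. Il1a had the higher miR-18a-5p, and Il1f5 (Il36rn in RefSeq), the antagonist of the IL-36 receptor, had the higher miR-181b-5p and miR-362-5p and the lower miR-326-5p. Il6ra (Il6r in RefSeq), the binding chain for interleukin 6, was predicted for 3 lower miRNAs, miR-326-5p, miR-702-5p and miR-760-3p. Its signalling partner Il6st (gp130) had the lower miR-326-5p and the higher miR-503-5p. The shared miR-326-5p sites are given side by side.
Il6ra with miR-326-5p: gcgacaaaggCTGCCCCa
Il6st with miR-326-5p: cattcatagccgCTGCCCCa
Il33 with miR-207: agagggaggaccagctAGGGGGAg
Il9r, the receptor of interleukin 9, had the lower miR-328a-5p and miR-760-3p and the higher miR-18a-5p and miR-503-5p. By listed position its miR-760-3p and miR-18a-5p sites are 2 bases apart, at bases 46 to 66 and 69 to 91. Il1rap, the shared chain of the interleukin 1 and interleukin 33 receptors, and Il2rg, the common gamma chain, had the lower miR-328a-5p. Il4ra and Il22ra1 had the lower miR-760-3p, and Il22ra2, a soluble decoy for interleukin 22, the higher miR-330-3p.

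Tnf itself, an inflammatory cytokine, was predicted for the higher miR-500-5p (score 156). Both of its receptors had a miRNA of each direction. Tnfrsf1a had the lower miR-207, with G:U pairing in the seed, and the higher miR-362-5p, with a mismatch in the seed. Tnfrsf1b had the lower miR-328a-5p and the higher miR-362-3p. Tnfrsf8 (CD30) was predicted for 3 higher miRNAs, miR-106b-3p, miR-362-5p and miR-503-5p. The death receptors Tnfrsf10b and Tnfrsf21 and the decoy Tnfrsf11b (osteoprotegerin) had the lower miR-207, and Tnfrsf14 the higher miR-181b-5p. Of the other genes matched by name stem, Tnfaip1 and Tnfaip8 had the higher miR-350 and miR-500-5p, and Tnfaip8l2 the lower miR-207.

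Ephrins are membrane-bound ligands that signal to Eph receptors on touching cells. Efnb1 was predicted for the lower miR-326-5p, miR-328a-5p and miR-702-5p, with 5 sites. Its miR-328a-5p site at bases 289 to 311 and its miR-326-5p site at bases 291 to 310 overlap by 20 bases with the same letters. Those 2 sites therefore rest on 1 stretch. Efnb1 has a further miR-328a-5p site at bases 729 to 747 (score 153, energy -33.71), with a G:U pair in the seed. Efna4 had the lower miR-760-3p (score 170, energy -32.49) and Efnb3 the lower miR-328a-5p. Among the receptors, Epha5 had the lower miR-702-5p, Epha10 the lower miR-326-5p and Ephb3 the higher miR-181b-5p.

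Seed pairing was read from the deposited alignments. Of the 119 sites of the 69 genes, 85 (71.4%) pair along the whole seed by Watson-Crick pairs, 28 hold G:U pairs and no mismatch, and 6 hold a mismatch. Those with a mismatch are Cxcl12 with miR-532-5p, Fgfr3 with miR-501-3p, Igf2 with miR-181b-5p, Il1f5 with miR-362-5p, Il9r with miR-18a-5p and Tnfrsf1a with miR-362-5p. All of them are sites of higher miRNAs. Over all 6476 sites 4505 (69.6%) are fully paired. Of the 20 miR-207 sites 7 are fully paired, against 14 of 15 for miR-760-3p and 8 of 8 for both miR-330-3p and miR-503-5p.

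Both partners of 15 ligand and receptor combinations are among the 69 genes, a list drawn up after the genes were known. None of the 15 has a miRNA predicted for both partners. How often genes of the table share a miRNA with each other was not counted, and 45 of the 69 genes have only 1 miRNA. Among those described here, ligands with lower miRNAs alone stood beside receptors with at least 1 higher miRNA for Pdgfb and Pdgfrb, Fgf1 and both Fgfr2 and Fgfr3, and Efnb1 and Efnb3 with Ephb3. For Tgfb3 and Tgfbr3, and for Il1a and Il1rap, the ligand had a higher miRNA alone and the receptor chain lower ones alone.

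Partners of the same pathways that the name rule does not match were looked up from 6 lists of 148 genes. In the target table were 50 of them, 19 with higher miRNAs alone, 18 with lower ones alone and 13 with both. Over all genes of the table these shares were 36.9%, 46.0% and 17.1%. Of all protein-coding RefSeq symbols, 16.6% are in the table. The lists were made by hand, so neither their counts nor those of each list below were tested against these shares. The TGF-beta and BMP list had 9 of 26, among them Grem1, a secreted BMP antagonist, with 3 higher miRNAs (miR-362-5p, miR-500-5p and miR-503-5p), Inhbb, an activin subunit, with the higher miR-362-3p and miR-503-5p, Eng, a TGF-beta co-receptor of endothelium, with the lower miR-328a-5p and miR-760-3p, and Acvr1b with 1 miRNA of each direction. The Wnt list had 5 of 26, with the secreted Wnt binder Sfrp4 predicted for the higher miR-330-3p and miR-362-5p. The growth factor kinase list had 15 of 30. In it the adaptors Irs2 and Shc1 had 3 miRNAs of mixed direction, Map2k1 had the higher miR-350 and miR-503-5p, and Nras, Mapk3 and Spry4 had 1 miRNA of each direction.

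The Notch list had 5 of 20, with the target gene Heyl predicted for 4 miRNAs, the co-activator Maml1 for 3 and the ligand Dll4 for the higher miR-147 and the lower miR-207. The cytokine list had 9 of 30. Traf3, a signalling adaptor of TNF receptors, had 5 miRNAs, 2 higher and 3 lower. Stat3, which acts below Il6st, Ripk1, a kinase of the Tnfrsf1a complex, Rela, an NF-kappaB subunit, and the cytokine Csf1 had 2 lower miRNAs each, and Stat5a had 2 higher ones. The ephrin list had 7 of 16, with Vav2 and Grb10 at 2 higher miRNAs and 1 lower, Abl1 at 2 higher ones, and Cdc42 at 1 of each. Enrichment was left untested, as the sources used here do not give which genes were searched.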

How the data were processed

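miRNAs of 3 exosome and 3 untreated CSC arrays were measured. The deposited values are log2 signals, made with RMA and detection above background per the file headers, but with MAS5 and Affymetrix Expression Console per the submitters' processing notes. Which of these made them is not settled here. The authors' deposited table of listed miRNAs also holds detection calls, p-values, an intensity mean for each group and the fold or ratio of these, which were read but not printed. miRanda gave each predicted site a score and an energy, kept above 150 and below -20 per the authors' note sheet. Of the site lines 18 were emptied before this work, and all 113 pairs described keep a site. The sources used here do not give the searched sequences or their build.

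Groups and replicate numbers came from sample titles. The 728 mature probe sets were fitted with limma 3.58.1 in R 4.3.3 (lmFit, eBayes), as exosome minus untreated. No further normalization was applied, and p-values were adjusted by Benjamini-Hochberg. The fit was tested on simulated data. Direction is the sign of the difference of group means, which matched the authors' for all 22. Targets were counted with Python 3.11.15 and pandas 2.3.3. All 69 symbols were found in the RefSeq table of GRCr8, 65 by current symbol. Named genes are those with at least 3 miRNAs, the 5 highest scores and 5 lowest energies, those with several sites for a miRNA, up to 6 examples a family and list partners with at least 2 miRNAs. Other members were named as well, outside that rule and after their values were seen. The members and lists were chosen with earlier results of these data known. Alternatives were other scalings, filters, a replicate block, arrays left out, and stricter sites. The number of arrays limits precision. Some results are not reported here.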

Additional observations from a re-analysis of the deposited data

How the results depend on the processing

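The count of mature miRNAs with an adjusted p under 0.05 in limma stayed 0 under every scaling and filter run and with the replicate block, and ranged from 0 to 23 with single arrays left out (23 without exosome replicate 3, 1 without untreated replicate 1). The unadjusted count was 106 at 0.05, but 64 after quantile normalization (34 higher, 30 lower), 163 with arrays centred on the deviation of bright miRNAs (17 higher, 146 lower, against 88 and 18 as deposited), 61 and 58 with a mean of at least 2 or 5 required, 70 with a floor at a log2 of 4, and 38 to 145 with an array left out (57 without exosome replicate 1, 38 without exosome replicate 2); the filters test fewer probe sets, and the cause of the other changes was not tested. All 19 miRNAs kept their direction in every setting that tested them. Whether the replicate number marks a pairing is not settled. Same-numbered arrays correlated at 0.035, 0.324 and 0.291 in their deviations from group means. Exosome replicates 2 and 3 correlated best with the untreated array of their number, but exosome replicate 1 with untreated replicate 2 (0.243). With the number as a block 111 miRNAs had an unadjusted p under 0.05 in limma. Among them were 18 of the 19, with miR-702-5p at an unadjusted p of 0.0721 in limma. Requiring a score of at least 160 left 24 of the 69 genes and 27 pairs, with 48.1% of pairs held by lower miRNAs, 0% of genes with both directions and 12.5% with at least 2 miRNAs, against 47.0%, 4.96% and 11.6% over the whole table. Requiring an energy of -25 or lower left 44 genes and 57 pairs, and these shares were 77.2%, 11.4% and 22.7%, with 72.7% of genes predicted for lower miRNAs alone, against 73.1%, 7.85%, 20.5% and 68.3% over the whole table. Keeping only miRNAs with an unadjusted p under 0.05 after quantile normalization left 91 pairs, 72.5% of them with lower miRNAs, and 61.7% of genes with lower miRNAs alone, against 70.5% and 64.2% over the whole table. Depth does not apply to arrays, and miR-207 and miR-702-5p, below a log2 of 4 on all arrays, could not be tested with that floor.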

Other observations

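Positions listed under 1 gene symbol can come from different sequences. In Cxcl12 the miR-207 site at bases 2312 to 2335 and the miR-328a-5p site at bases 2317 to 2336 would overlap by 19 bases, yet their letters differ there. The overlapping sites of Efnb1, Fgfr2 and Tgfbr3 have the same letters in the overlap. The repeated Cxcl12 sites, 2495 bases apart, are listed for 3 miRNAs. In all, 36 pairs of a miRNA and a gene hold such a repeated site. Distances between Cxcl12 sites are therefore not read as distances in 1 transcript. The close sites of Pdgfrb and of Il9r share no bases, so their letters cannot show whether they lie on 1 sequence.

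The Vegfb site of miR-207 was found with the same letters under Mks1 and Shc1, and it is the only one of the 119 sites shared with another symbol for the same miRNA, against 303 of 6476 in the whole table. The 12 bases before its last base, GAGGCAGGAGGA, were chosen as a motif after these sites were seen and searched on the listed strand. The motif is in 4 of the 20 miR-207 sites of the 69 genes (Ccl24, Dkk1, Tnfrsf21 and Vegfb) and in 24 of all 769 miR-207 sites (3.12%). The Vegfb site holds it by choice of the motif and the 4 are among the 24, so these counts were not tested against each other. The sites with it are printed for comparison.
Vegfb with miR-207: ctcaggaggcagaggcAGGAGGAt
Ccl24 with miR-207: ttcagaaggcagaggcAGGAGGAt
Tnfrsf21 with miR-207: attggaagagagaggcAGGAGGAt
Dkk1 with miR-207: ttctgggggatgaggcAGGAGGAa

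Of 23148 protein-coding symbols in the RefSeq table, 3842 (16.6%) are in the target table, and of the 314 that match the name rule 68 (21.7%) are. The shares differ between stems, from 1 of 16 for Bmp to 3 of 5 for Dkk. The sources used here do not give which genes were searched, so the shares describe the overlap of 2 tables.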
